A study of Mus musculus with 24 samples.

Results

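Whole tumors grown from Sun1 knockout CT26 cells were compared with whole tumors grown from control cells across all genes, with weight on functions and cell types outside the usual immune markers. The comparison takes 15 of the 24 libraries of the series, chosen by their titles: 7 tumors of Sun1 knockout cells and 8 tumors of control line 1, whose genotype is given as wildtype. CT26 is a mouse colon carcinoma line of the BALB/c strain, and in each case 1000000 cells were placed under the skin of the right flank of BALB/c mice and the tumor was taken at day 14. The labels name no change of Sun1 in the host mice, so host cells may add its transcript to a knockout tumor. The other 9 libraries, 6 of tumor cells purified from such tumors (2 each of the knockout and of 2 control lines) and 3 of cultured cells (1 per line), show what the cells themselves express and how the knockout changes them outside the whole tumor. A single knockout line and 1 control line entered the tumors, so the loss of Sun1 and any other difference between these lines cannot be told apart.

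SUN1 sits in the inner nuclear membrane and binds the lamina inside the nucleus. Across the space between the nuclear membranes it grips nesprins, which hold actin, microtubules and motor proteins, and so forms a LINC complex, the link between nucleus and cytoskeleton. A tumor under the skin is a mixture of carcinoma cells with host vessels, fibroblasts, leukocytes and, at its edge, muscle and fascia. In such bulk RNA, fewer cells of a type and less RNA per cell cannot be told apart.

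Depth was 16032223 to 20591957 expected counts in knockout tumors and 14140769 to 24651279 in control tumors. Levels are given as CPM, read counts scaled to library size, log2 fold changes are knockout over control with their standard error after the ± sign, and a gene is said to have risen or fallen only at an edgeR quasi-likelihood adjusted p under 0.05 in 7 against 8 libraries. Sun1 (chr5:139200564-139249839, GRCm38) measured 50.5 to 64.8 CPM (median 57.9) in knockout tumors and 169 to 192 CPM (median 178) in control tumors, without overlap (log2 fold change -1.63 ± 0.06, edgeR adjusted p = 4.56e-14), and kept its call with host content, described below, in the model. Of 13752 genes tested, 2488 rose (18.1%) and 2619 fell (19%), together 37.1%. Of these, 311 rose (2.26%) and 127 fell (0.924%) at least 2-fold. All 7 knockout values lay above all 8 control values in 429 genes (3.12%) and below them in 836 genes (6.08%). Every count of a gene list below is to be read against these shares over all genes. With scaling by upper quartiles the split became 3106 higher and 2063 lower. The labels do not say whether libraries of a group came from separate animals, and the spread behind each p-value is that between these libraries.

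Genes that CT26 cells hardly express rose more often than they fell, and genes that they do express fell more often than they rose. Of 2426 tested genes at or below 1 CPM in all 3 cultured libraries, 29.3% rose and 4.04% fell, with a median log2 fold change of 0.40. Of the 11326 genes above that level, 15.7% rose and 22.3% fell. Host content, taken as the mean log2 CPM of the leukocyte gene Ptprc and the endothelial gene Pecam1, was 6.40 to 6.84 in knockout tumors and 5.62 to 6.20 in control tumors, without overlap. When host content entered the model as a further term, 39 genes were called higher and 157 lower. Host content separates the groups by itself, so it and the genotype cannot be told apart in that fit, and its part in the results below was not tested. Of 207 called genes chosen for description, 35 kept their call in it, and those described are pointed out below. In that fit 27 others changed sign: Cfp, Ciart, Ckm, Clock, Ctsh, Ctss, Cyth4, Des, Egfl7, Esam, Fabp4, Fbln1, Grb10, Hoxb9, Igf1, Loxl1, Loxl2, Meg3, Mfap5, Mfng, Myh4, Rarres2, Rian, Sgce, Srpx, Tbc1d10c and Twist2. Skeletal muscle content, taken the same way from muscle genes, was -1.16 to 3.69 in knockout tumors and -1.79 to 0.53 in control tumors. With it as a term, 1599 genes were higher and 1747 lower. The named genes that lost their call with it were Abcg1, Aldh1a1, Arg1, Atg5, Cfp, Ciart, Ckm, Clock, Col15a1, Ctsh, Ctss, Cyth4, Dbp, Egfl7, Emcn, Esam, Etv1, Fabp4, Fbln1, Gfra1, Grb10, Has2, Hoxb9, Hoxc5, Hoxc8, Hspa8, Igf1, Igfbp4, Loxl1, Loxl2, Lpl, Lrig1, Ly6a, Mdh1, Mfng, Myh4, Nefm, Notch4, Osm, Pdgfrl, Penk, Pf4, Ppat, Rarres2, Rian, Sdhb, Sfrp2, Sgce, Srpx, Syp, Syt1 and Twist2, and Des changed sign.

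Short transcripts rose and long transcripts fell. Among the shortest 10% of tested genes (median transcript length 868 bases) 43.9% rose and 4.29% fell, while in the longest 10% (median 7395 bases) 8.07% rose and 38.0% fell. The size of the trend varied from library to library. The longest 10% minus the shortest 10%, as a median log2 deviation, was -0.08 to -0.50 in knockout tumors, lowest in replicate 6, and -0.04 to 0.53 in control tumors, highest in replicate 1. Control replicate 8 was the only control library below 0. Among genes at or below 1 CPM in culture the shares were 35.0% higher in the shortest 10% and 24.8% in the longest, against 46.0% and 4.50% among genes above that level. A fit with the trend taken out of each library called 2307 genes higher and 2191 lower, of which 1834 and 1860 were called in the same direction without it. The cause of the trend was not tested. Counts of gene lists from this corrected fit are given below where they differ.

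**Figure D1:**
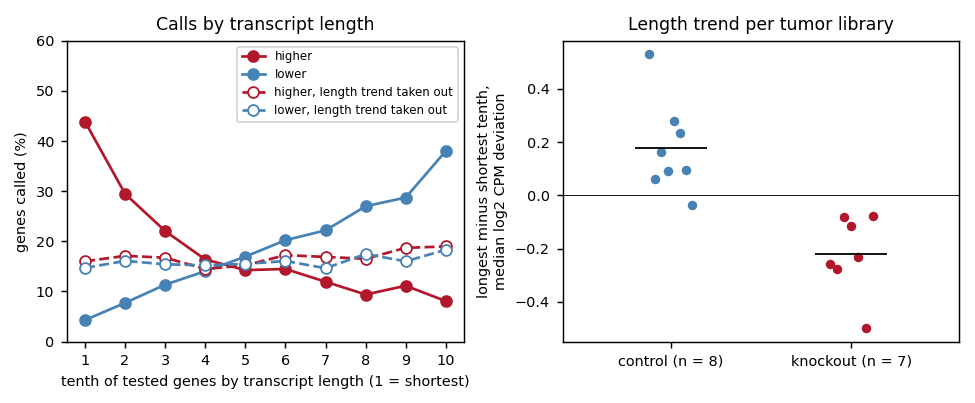
Left, the percentage of genes called higher (red) or lower (blue) in knockout tumors in each of 10 classes of transcript length, with open symbols for the fit with the length trend taken out. Right, the longest minus the shortest class (median log2 CPM deviation) in each of 8 control and 7 knockout tumors, with lines at the means; knockout values span -0.50 to -0.08 and control values -0.04 to 0.53.

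A pair of stretches of the nuclear genome stood out by position. Along the proximal part of chromosome X, from Shroom4 to Stag2 (chrX:6399949-42277186, GRCm38), 70 of 100 tested genes fell and 4 rose, with a median log2 fold change of -0.52. On distal chromosome 15, from Myh9 to Tbc1d22a (chr15:77760585-86498503), 83 of 129 fell and 13 rose, with a median of -0.36. In the rest of X the counts were 44 lower and 80 higher of 322 (median 0.09), and in the rest of chromosome 15 they were 83 lower and 63 higher of 412 (median -0.05). The limits of both stretches were set after the values were seen, so these counts are a description with no test. Among 237 windows of 10 Mb, the 5 lowest medians were the 4 windows of proximal X (-0.60 to -0.41) and the window of chromosome 15 from 80 to 90 Mb (-0.27). The highest was on X from 50 to 60 Mb (0.39). The mitochondrial genome formed no window. All 13 of its tested genes rose (median 0.49), against 18.1% over all genes. In 9 of them the groups did not overlap, against 3.12% of all genes. The cause of this rise was not tested.

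Within both stretches the genes that fell were those that CT26 cells express. Of the 82 genes of the X stretch above 2 CPM in culture, 70 fell, 54 of them without overlap, and 1 rose. The other 18 genes held 0 that fell and 3 that rose, with a median of 0.27. On chromosome 15, 81 of 100 genes above 2 CPM fell and 1 rose, against 2 lower and 12 higher of 29 below that level (median 0.38). The same genes were low in the cells themselves. In purified tumor cells 74 of the 100 X genes were called lower (background over all genes 6.84%), with a median of -1.01, and in culture the knockout library lay below both control lines in 75 of 79 (background 33.4%). For chromosome 15 these counts were 60 of 129 and 86 of 96. The control lines differed little there: control line 2 minus control line 1 had a median of 0.11 on X and 0.01 on chromosome 15 in culture.

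**Figure D2:**
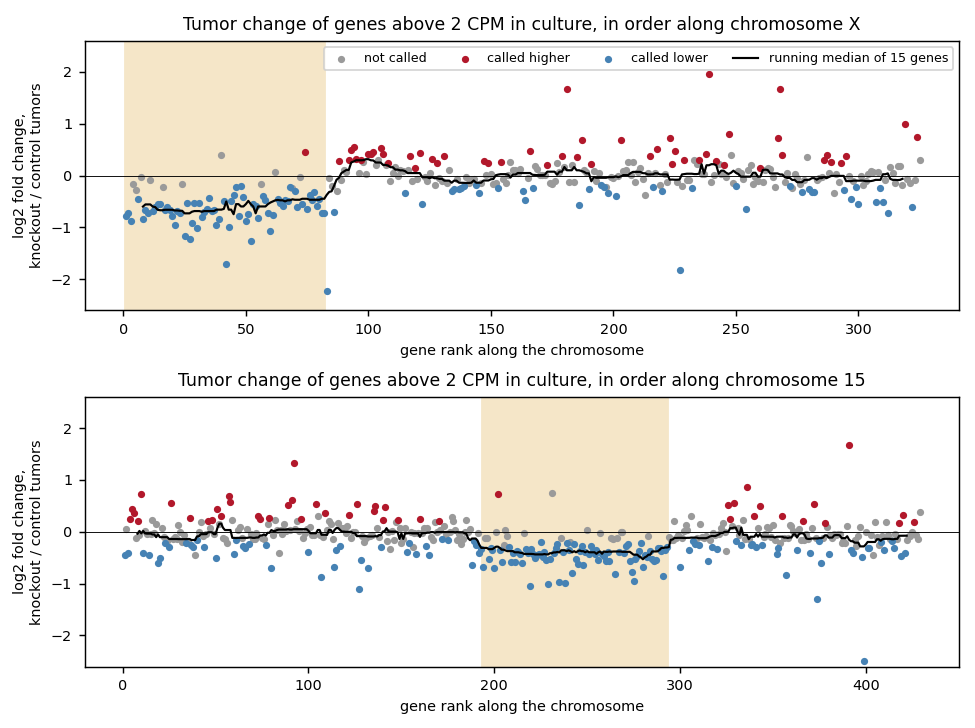
Log2 fold change (knockout over control tumors) of each gene above 2 CPM in culture, in order along chromosome X (top) and 15 (bottom), with red for called higher, blue for called lower, grey for not called, values beyond 2.5 drawn at 2.5, and a running median of 15 genes in black. The shaded stretches are the 82 genes from Shroom4 to Stag2, of which 70 fell, and the 100 genes from Myh9 to Tbc1d22a, of which 81 fell.

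Every knockout tumor showed the shift. As a median over the 82 X genes, knockout tumors lay at -0.56 to -0.63 from the control mean on the log2 scale, and control tumors at -0.07 to 0.06. Over the 100 genes of chromosome 15 the values were -0.39 to -0.47 and -0.08 to 0.10. All other genes kept medians between -0.05 and 0.05. DNA copy number and DNA methylation were not analysed here, and the cause of these shifts was not tested.

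**Figure D3:**
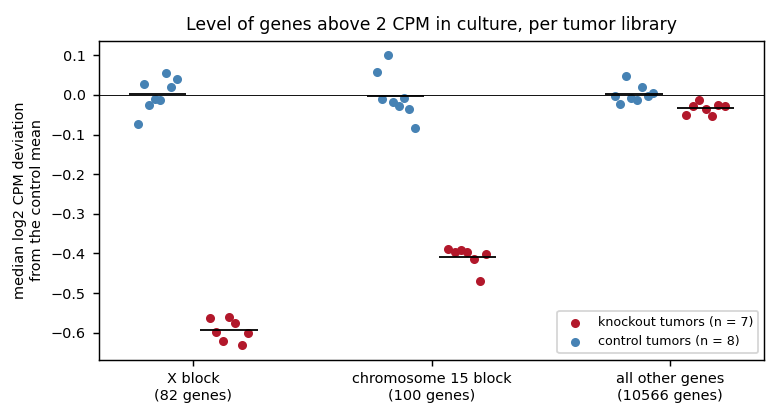
Median deviation of log2 CPM from the control mean over the genes of each stretch above 2 CPM in culture, and over all other such genes, for each control (blue) and knockout (red) tumor, with lines at the group means. Knockout tumors lie at -0.63 to -0.56 on X and at -0.47 to -0.39 on chromosome 15.

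The X genes that fell have varied roles. Those given here were chosen after their values were seen, and some fell less than the median of -0.60 over the 82 genes. Usp9x, a deubiquitinase, measured 178 to 202 CPM (median 191) in knockout tumors and 322 to 369 CPM (median 340.5) in control tumors, without overlap (log2 fold change -0.83 ± 0.05, edgeR adjusted p = 1.42e-10). Uba1, which activates ubiquitin for the whole conjugation pathway, measured 135 to 228 CPM (median 215) in knockout tumors and 341 to 408 CPM (median 385) in control tumors (log2 fold change -0.88 ± 0.09, edgeR adjusted p = 2.76e-07). Another deubiquitinase, Usp11, fell from 25.1 ± 2.19 CPM (mean and SD of 8 controls) to 10.4 ± 1.2 CPM (7 knockouts), by 1.27 on the log2 scale. These ubiquitin genes were each lower in all 7 knockout tumors than in any control tumor. Plp2, a membrane protein of the endoplasmic reticulum, measured 175 to 206 CPM (median 187) in knockout tumors and 297 to 366 CPM (median 335) in control tumors (log2 fold change -0.83 ± 0.06, edgeR adjusted p = 1.11e-09). The tubulin deacetylase Hdac6 fell by 0.78, the amine-degrading enzyme Maoa by 1.00, the cohesin subunit Stag2 by 0.73, the mitochondrial ADP/ATP carrier Slc25a5 by 0.52 and the histone demethylase Kdm6a by 0.38.

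Cask and Tmlhe were near absent in the knockout cells themselves. Cask, a scaffold protein of cell junctions, measured 2.6 to 6.36 CPM (median 4.67) in knockout tumors and 12.98 to 19.1 CPM (median 14.8) in control tumors (log2 fold change -1.71 ± 0.14, edgeR adjusted p = 2.21e-08). Purified cells held 0 and 0.138 CPM in the knockout libraries against 16.03 to 22.00 CPM in the 4 control libraries, and the tumor and purified effects differed (edgeR interaction adjusted p = 2.85e-08). Tmlhe, which starts carnitine synthesis and is X-linked without a placed position in the annotation used, measured 0.372 to 1.71 CPM (median 1.46) in knockout tumors and 9.1 to 13.1 CPM (median 10.8) in control tumors (log2 fold change -2.94 ± 0.18, edgeR adjusted p = 2.98e-10), with 0.0986 CPM in cultured knockout cells against 17.4 and 17.6 CPM in the control lines. Il13ra1, a receptor chain for interleukins, fell by 1.07 in tumors. Cybb, an oxidase subunit of phagocytes that lies in the stretch, was not called (0.37 ± 0.22). The X genes that rose were Rhox5 (0.46), a homeobox gene of the germ line that CT26 cells express, and 3 genes at or below 2 CPM in culture: the complement regulator Cfp (0.45), the matrix protein Srpx (1.05) and the synaptic vesicle protein Syp (0.95). Without knockout replicate 5, Srpx and Syp had edgeR adjusted p of 0.0693 and 0.0721. For Cfp the adjusted p was 0.0627 to 0.0912 without any single one of control replicates 1, 3, 4, 6 and 8 or knockout replicates 1, 2, 4, 5 and 7, and the corrected fit did not call it either. Usp9x, Uba1, Usp11, Plp2, Hdac6, Maoa, Stag2, Slc25a5, Cask, Tmlhe and Il13ra1 kept their call with host content in the model.

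On chromosome 15 the stretch holds Sun2, the partner gene of Sun1, whose protein builds the same kind of nuclear bridge. It measured 67.2 to 90.9 CPM (median 78.3) in knockout tumors and 105 to 135 CPM (median 115) in control tumors, without overlap (log2 fold change -0.55 ± 0.07, edgeR adjusted p = 9.68e-06). Srebf2, the transcription factor of cholesterol synthesis, fell from 193 ± 21.9 CPM (mean and SD of 8 controls) to 109.8 ± 12.4 CPM (7 knockouts), by 0.81. Cyb5r3, a reductase that recycles cytochrome b5, measured 223 to 293 CPM (median 264) in knockout tumors and 420.3 to 484 CPM (median 448) in control tumors (log2 fold change -0.78 ± 0.06, edgeR adjusted p = 5.83e-09). Both kept their call with host content in the model. The small Maf factor Maff fell by 1.05, the glycosyltransferase Mgat3 by 0.98, the Polycomb protein Cbx7 by 0.96, non-muscle myosin Myh9 by 0.68, the acetyltransferase Ep300 by 0.43 and the stress response factor Atf4 by 0.36. Some genes of the stretch rose. The leukocyte genes Rac2, Il2rb and Cyth4 rose by 0.78, 0.67 and 0.73, and the matrix protein Fbln1 by 0.99, whose edgeR adjusted p was 0.0613 without knockout replicate 5. The abundant genes Lgals1 (-0.08 ± 0.07) and Rpl3 (-0.12 ± 0.07) were not called, and both were called lower in the corrected fit, at -0.33 and -0.23.

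Of 22 integrin genes tested 3 fell and 3 rose (median -0.04), against 19% and 18.1% over all genes. The corrected fit called 2 lower and 3 higher. The laminin receptor pair was among those that fell. Integrins are paired receptors for the matrix, and alpha 6 with beta 4 binds laminins and anchors epithelial cells through hemidesmosomes. Itgb4 (chr11:115974725-116008412) measured 27.3 to 57.8 CPM (median 32.1) in knockout tumors and 109 to 136 CPM (median 118) in control tumors (log2 fold change -1.64 ± 0.14, edgeR adjusted p = 2.76e-07). Its partner Itga6 measured 113 to 159 CPM (median 145) in knockout tumors and 213 to 258 CPM (median 238) in control tumors (log2 fold change -0.70 ± 0.06, edgeR adjusted p = 1.3e-07). Neither gene had overlapping groups, while Itgb1, the common beta chain, did not pass the test (-0.05 ± 0.06). In purified tumor cells neither was called, with log2 fold changes of -0.36 for Itgb4 and -0.04 for Itga6, and the effect in tumors was lower than that in purified cells in both genes (edgeR interaction adjusted p = 0.0408 and 0.00174).

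Of 19 basement membrane genes tested, 8 fell and 1 rose (median -0.22, against 0.01 for all genes). Over all genes 19% fell and 18.1% rose. The corrected fit called 6 lower and 2 higher. Nidogen, which ties laminin to collagen IV, is encoded by Nid1, which measured 96.4 to 125 CPM (median 104) in knockout tumors and 162 to 242 CPM (median 190.0) in control tumors (log2 fold change -0.88 ± 0.08, edgeR adjusted p = 6.65e-08). It fell in purified cells too, by 1.05 (edgeR adjusted p = 1.61e-05). The laminin chains Lamb2 (-0.54), Lama3 (-0.61) and Lamc1 (-0.25), the laminin-binding netrin Ntn4 (-0.62) and the collagen IV chain Col4a2 (-0.40) fell too, Lamc1 only without the correction for length. Col15a1, a collagen of vascular and muscle basement membranes that is near absent in cultured cells, rose by 0.96. Itgb4, Itga6 and Nid1 kept their call with host content in the model.

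**Figure D4:**
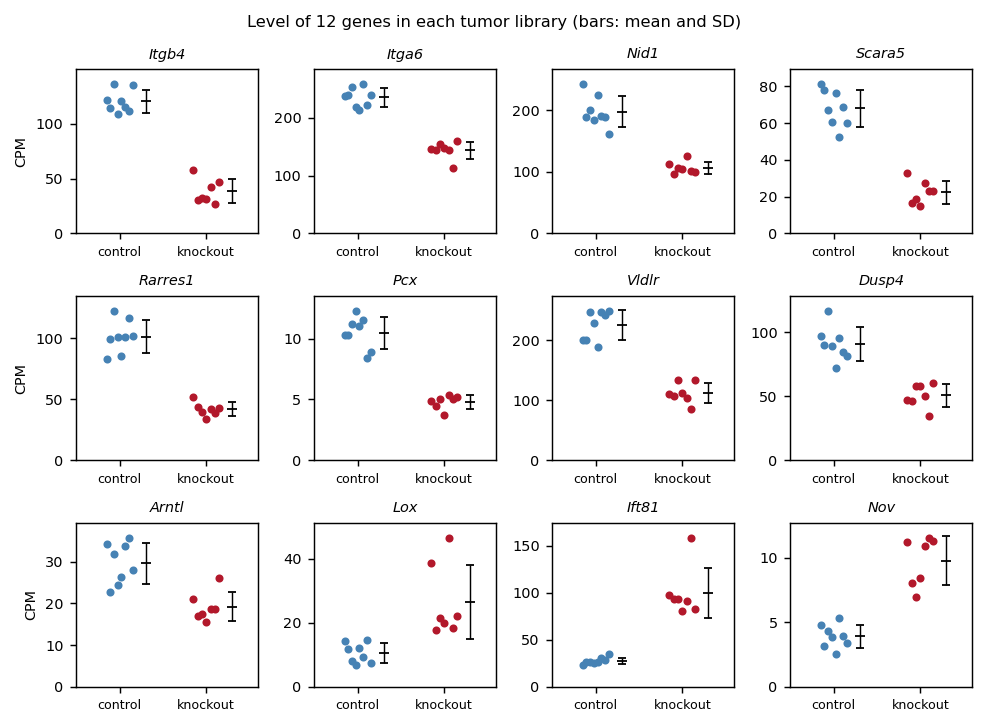
CPM of 12 genes in each of the 8 control tumors (blue) and 7 knockout tumors (red), each panel with its own axis from 0, and mean with SD beside the points. The groups do not overlap in Itgb4, Itga6, Nid1, Scara5, Rarres1, Pcx, Vldlr, Dusp4, Lox, Ift81 and Nov, and overlap in Arntl.

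Genes of the interstitial matrix changed in both directions. Lysyl oxidases cross-link collagen and elastin outside the cell. Lox measured 6.88 to 14.5 CPM (median 10.6) in control tumors and 17.7 to 46.6 CPM (median 21.4) in knockout tumors (log2 fold change 1.33 ± 0.25, edgeR adjusted p = 0.000896), and all 7 knockout values lay above the controls. Its relatives Loxl1 and Loxl2 rose by 1.06 and 0.88, and the microfibril protein Mfap5 by 0.89. These genes were under 1 CPM in cultured cells. Among genes that the cultured cells express at high level, fibronectin Fn1 measured 989.7 to 2709 CPM (median 1945) in knockout tumors and 2927 to 4961 CPM (median 3407) in control tumors (log2 fold change -0.93 ± 0.17, edgeR adjusted p = 0.000744) and the matricellular protein Thbs2 259 to 419 CPM (median 326) in knockout tumors and 567 to 796 CPM (median 592) in control tumors (log2 fold change -0.97 ± 0.10, edgeR adjusted p = 6.64e-07), both without overlap. Plod2, which hydroxylates collagen lysines, fell from 153 ± 23.9 CPM (mean and SD of 8 controls) to 113 ± 24.5 CPM (7 knockouts), by 0.43. Of 23 genes of elastic fibres and cross-linking, 7 rose and 5 fell (median 0.04), against 18.1% and 19% over all genes. The corrected fit called 9 higher and 3 lower.

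Glycosaminoglycans are the sugar chains of proteoglycans and hyaluronan, built and cut by dedicated enzymes. Of 24 tested, 10 fell and 4 rose (median -0.15), against 19% and 18.1% over all genes, with 9 and 4 in the corrected fit. The heparanase gene Hpse, whose enzyme cleaves heparan sulfate, measured 173 to 223 CPM (median 200.2) in knockout tumors and 271 to 296 CPM (median 277) in control tumors (log2 fold change -0.49 ± 0.06, edgeR adjusted p = 1.66e-06). Chst15, which sulfates chondroitin, measured 22.6 to 29.3 CPM (median 23.96) in knockout tumors and 32.2 to 49.04 CPM (median 42.3) in control tumors (log2 fold change -0.73 ± 0.09, edgeR adjusted p = 2.55e-06), and Csgalnact1, which starts chondroitin chains, fell by 0.82. None of these 3 genes had overlapping groups. The hyaluronan synthases went apart: Has1 fell from 8.45 ± 2.19 CPM (mean and SD of 8 controls) to 2.57 ± 0.893 CPM (7 knockouts), by 1.70, and Has2 rose from 0.759 ± 0.411 CPM (mean and SD of 8 controls) to 1.63 ± 0.584 CPM (7 knockouts), by 1.08. Xylt1, which starts glycosaminoglycan chains on core proteins, fell by 1.02 at about 1 CPM. Has1, Chst15 and Csgalnact1 kept their call with host content in the model.

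Vitamin A is taken up by cells as retinol, oxidised to retinoic acid, carried to the nucleus by binding proteins and degraded by Cyp26 enzymes. Of 17 genes of this pathway tested, 7 fell and 2 rose (median -0.14), against 19% and 18.1% over all genes. The corrected fit called 7 lower and 1 higher. In 4 genes that fell the groups did not overlap, against 6.08% of all genes. Stra6, the membrane receptor for retinol and its carrier, measured 0.402 to 1.73 CPM (median 1.21) in knockout tumors and 3.16 to 13.2 CPM (median 7.06) in control tumors (log2 fold change -2.57 ± 0.33, edgeR adjusted p = 1.8e-05). The retinoic acid carrier Crabp2 measured 7.95 to 17.04 CPM (median 11.4) in knockout tumors and 18.4 to 36.8 CPM (median 24.1) in control tumors (log2 fold change -1.13 ± 0.16, edgeR adjusted p = 6.1e-05). Rarres1, a gene named for its response to retinoids, measured 33.5 to 52.00 CPM (median 42.04) in knockout tumors and 83.2 to 123 CPM (median 101) in control tumors (log2 fold change -1.27 ± 0.09, edgeR adjusted p = 2.85e-09) and kept its call with host content in the model. In each of these 3 genes the groups did not overlap, and the purified knockout cells were lower as well (-1.86, -0.80 and -1.05, edgeR adjusted p = 0.0248, 0.0463 and 0.00114). The degrading enzyme Cyp26b1 fell by 0.76 and the nuclear receptor Rxrb by 0.32. The members that rose were Aldh1a1 (1.12), which makes retinoic acid, and Rarres2 (0.90), the chemoattractant chemerin. Aldh1a1 had an edgeR adjusted p of 0.0653 without knockout replicate 6, and Rarres2 was not called in the corrected fit. Crabp1, a relative of Crabp2, was not called (-0.12 ± 0.30).

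Several ligands of the EGF receptor fell while the receptor did not pass the test. Of 14 genes of the family tested, 6 fell and 0 rose (median -0.27), against 19% and 18.1% over all genes. The corrected fit called 4 lower and 1 higher, the receptor gene Egfr. Betacellulin (Btc) measured 23.7 to 39.7 CPM (median 27.6) in knockout tumors and 35.8 to 80.99 CPM (median 66.5) in control tumors (log2 fold change -1.02 ± 0.18, edgeR adjusted p = 0.000499), amphiregulin (Areg) 3.63 to 7.28 CPM (median 5.0) in knockout tumors and 4.69 to 11.4 CPM (median 9.22) in control tumors (log2 fold change -0.74 ± 0.18, edgeR adjusted p = 0.00401) and heparin-binding EGF (Hbegf) 85.1 to 118 CPM (median 92.4) in knockout tumors and 101 to 153 CPM (median 121) in control tumors (log2 fold change -0.34 ± 0.09, edgeR adjusted p = 0.00463). The groups overlapped in all 3 ligands. Egfr itself, at 1 to 2 CPM, stood at 0.60 ± 0.24 (edgeR adjusted p = 0.0543). The inhibitors Errfi1 and Lrig1, which restrain the receptor, fell by 0.34 and 0.21, the latter not in the corrected fit.

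Some genes that damp or report MAP kinase signalling fell. Of 21 tested, 7 fell and 0 rose (median -0.15), against 19% and 18.1% over all genes, with 6 and 0 in the corrected fit. The phosphatase gene Dusp4 measured 34.2 to 60.6 CPM (median 49.8) in knockout tumors and 72.2 to 116 CPM (median 89.7) in control tumors (log2 fold change -0.84 ± 0.11, edgeR adjusted p = 1.97e-05), and the Ras GTPase activator Rasa1 67.2 to 81.6 CPM (median 74.1) in knockout tumors and 88.5 to 116 CPM (median 96.6) in control tumors (log2 fold change -0.41 ± 0.06, edgeR adjusted p = 6.72e-05), both without overlap. The target genes Etv1, Ier3 and the inhibitor Spred3 fell by 0.33, 0.42 and 0.30. Dusp6, the phosphatase of cytoplasmic ERK, was not called at 215 to 250.3 CPM (median 222) in knockout tumors and 207 to 248 CPM (median 217) in control tumors (0.06 ± 0.06).

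Wnt ligands need the acyltransferase Porcn and the carrier Wls to leave the cell, and act through Frizzled receptors with Lrp5 or Lrp6 on Tcf and Lef factors. Of 30 pathway genes tested, 11 fell and 4 rose (median -0.15), against 19% and 18.1% over all genes. The corrected fit called 9 lower and 4 higher. The secretion genes were lower: Wls measured 63.5 to 78.3 CPM (median 70.2) in knockout tumors and 91.96 to 109.9 CPM (median 101) in control tumors (log2 fold change -0.49 ± 0.06, edgeR adjusted p = 1.99e-06) and Porcn, which lies in the X stretch, 3.47 to 5.79 CPM (median 3.78) in knockout tumors and 9.64 to 10.9 CPM (median 10.1) in control tumors (log2 fold change -1.23 ± 0.12, edgeR adjusted p = 1.61e-07). Both kept their call with host content in the model. The receptor genes Fzd3 and Lrp5 fell by 0.81 and 0.61, and Fzd6 was not called (-0.14). Of the nuclear factors, Lef1 and Tcf7l2 were among the genes that rose. Lef1 measured 4.41 to 8.11 CPM (median 6.05) in control tumors and 8.49 to 12.1 CPM (median 9.4) in knockout tumors (log2 fold change 0.71 ± 0.13, edgeR adjusted p = 0.000342), without overlap, and Tcf7l2 rose by 0.53. The secreted modulator Sfrp2, absent from cultured cells, rose from 0.404 ± 0.383 CPM (mean and SD of 8 controls) to 1.9 ± 1.5 CPM (7 knockouts), with a log2 fold change of 2.27 ± 0.54.

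Axon guidance genes, which steer growing nerves and also vessels and tumor cells, changed in both directions. Of 41 tested, 16 fell and 8 rose (median -0.12), against 19% and 18.1% over all genes. The share that rose was thus near that over all genes. In 9 of those that fell the groups did not overlap, against 6.08% of all genes. The corrected fit called 11 lower and 9 higher. The repellent ligands Slit2 and Slit3 fell: Slit2 measured 329 to 407 CPM (median 379) in knockout tumors and 468 to 601 CPM (median 538) in control tumors (log2 fold change -0.53 ± 0.06, edgeR adjusted p = 2.21e-06), and Slit3 134 to 166 CPM (median 150.1) in knockout tumors and 182 to 309.9 CPM (median 229) in control tumors (log2 fold change -0.67 ± 0.09, edgeR adjusted p = 2.73e-05). Receptors for semaphorins fell as well. Plxna2 measured 17.5 to 20.3 CPM (median 18.4) in knockout tumors and 29.9 to 42.98 CPM (median 33.3) in control tumors (log2 fold change -0.85 ± 0.08, edgeR adjusted p = 1.24e-07), and Nrp2 196 to 263 CPM (median 228) in knockout tumors and 305 to 385 CPM (median 319.9) in control tumors (log2 fold change -0.55 ± 0.07, edgeR adjusted p = 4.3e-06). All 4 genes had groups that did not overlap, and Plxna2 kept its call with host content in the model. The attractant Ntn1 fell by 0.71. The ephrin gene Efna5 rose, with 15.8 to 25.5 CPM (median 22.5) in control tumors and 28.1 to 58.1 CPM (median 32.7) in knockout tumors (log2 fold change 0.67 ± 0.14, edgeR adjusted p = 0.00169). Slit2, Slit3 and Plxna2 were not called in purified cells (log2 fold changes of 0.03, 0.16 and -0.14), and the effects of the 2 settings differed (edgeR interaction adjusted p = 0.0328, 0.0403 and 0.0138).

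In the Notch pathway, signalling between touching cells, 4 of 20 genes rose, a share near the 18.1% over all genes, and 0 fell (median 0.04). The corrected fit called 5 higher. The target gene Hes1 rose by 0.53, the receptor-modifying enzymes Lfng and Mfng by 0.44 and 0.63, and the endothelial receptor Notch4 by 0.48. The groups overlapped in all 4 genes, and Notch4 had an edgeR adjusted p of 0.0622 without knockout replicate 1. Notch4 and Mfng moved with the endothelial and leukocyte content given above, whose part in their rise was not tested.

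Over 22 genes of neuropeptide and neurotrophic signalling, 5 fell and 4 rose (median 0.10), shares near those over all genes (19% and 18.1%). The corrected fit called 5 lower and 5 higher. The members that changed are given gene by gene. Pthlh, a hormone that tumors can release and that acts on bone and kidney, measured 5.05 to 9.59 CPM (median 5.93) in knockout tumors and 13.8 to 26.6 CPM (median 24.2) in control tumors (log2 fold change -1.80 ± 0.16, edgeR adjusted p = 2.67e-07). Endothelin (Edn1) measured 3.0 to 3.72 CPM (median 3.42) in knockout tumors and 4.28 to 6.54 CPM (median 5.37) in control tumors (log2 fold change -0.66 ± 0.12, edgeR adjusted p = 0.000315), and the shared cytokine receptor chain Il6st 75.3 to 109 CPM (median 96.7) in knockout tumors and 125 to 148 CPM (median 129) in control tumors (log2 fold change -0.51 ± 0.07, edgeR adjusted p = 1.14e-05). These 3 genes had no overlap, and Pthlh kept its call with host content in the model. The calcitonin-family receptor Calcrl and the cytokine Osm fell by 0.49 and 0.63. The GDNF receptor Gfra1 rose by 1.52 and the opioid precursor Penk by 0.91, both with knockout medians below 2 CPM.

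In the insulin-like growth factor pathway 3 of 13 genes rose and 3 fell (median 0.20), against 18.1% and 19% over all genes. The corrected fit called 4 higher and 3 lower. The ligand Igf1 rose by 1.17, the binding protein Igfbp7 by 0.76 and the adaptor Grb10, an imprinted gene, by 0.69. The signal adaptor Irs2 measured 15.8 to 40.9 CPM (median 35.8) in knockout tumors and 41.5 to 75.6 CPM (median 53.95) in control tumors (log2 fold change -0.76 ± 0.17, edgeR adjusted p = 0.00358), and the receptor Igf2r and binding protein Igfbp4 fell by 0.30 and 0.36, Igf2r not in the corrected fit. Of 17 genes of the PDGF and VEGF families, 6 rose and 3 fell (median 0.24), against 18.1% and 19% over all genes. The share that fell was thus near that over all genes. Vegfa, the main inducer of vessel growth, measured 179 to 392 CPM (median 293) in knockout tumors and 341 to 483 CPM (median 396) in control tumors (log2 fold change -0.50 ± 0.13, edgeR adjusted p = 0.00671), with overlap, and Vegfd fell by 0.50. Pdgfrl rose by 1.62 at about 1 CPM and the ligand Pdgfc by 0.36. The purinergic receptor P2ry2 and autotaxin (Enpp2), which makes lysophosphatidic acid, fell by 0.98 and 1.58, both without overlap. Of 22 purinergic and adenosine genes tested, however, 7 rose and 3 fell (median 0.12), against 18.1% and 19% over all genes. The corrected fit called 8 of these 22 higher and 2 lower. Autotaxin was under 1 CPM in culture and not called in purified cells, at 0.86, and the effects in tumors and purified cells differed (edgeR interaction adjusted p = 0.00434). Arginase (Arg1), a myeloid enzyme under 1 CPM in cultured cells, measured 12.1 to 64.1 CPM (median 35.3) in knockout tumors and 60.7 to 125 CPM (median 89.5) in control tumors (log2 fold change -1.25 ± 0.32, edgeR adjusted p = 0.00792), against the direction of the leukocyte genes.

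The circadian clock runs on a loop in which Arntl and Clock bind E-boxes, the letters CACGTG, in the promoters of their own repressors. Of 19 clock genes tested, 9 fell and 2 rose (median -0.18), against 19% and 18.1% over all genes. The corrected fit called 8 lower and 1 higher, and no clock gene had groups free of overlap. Arntl measured 15.5 to 26.00 CPM (median 18.6) in knockout tumors and 22.8 to 35.8 CPM (median 29.9) in control tumors (log2 fold change -0.62 ± 0.11, edgeR adjusted p = 0.000336). The repressor Bhlhe40 measured 78.99 to 122 CPM (median 104) in knockout tumors and 116 to 212 CPM (median 159) in control tumors (log2 fold change -0.62 ± 0.10, edgeR adjusted p = 0.000229), and its relative Bhlhe41 36.1 to 46.9 CPM (median 39.3) in knockout tumors and 44.5 to 60.3 CPM (median 49.96) in control tumors (log2 fold change -0.32 ± 0.07, edgeR adjusted p = 0.000997). Cry2 fell by 0.41, the repressor Nfil3 by 0.47, and Csnk1e and Tef, which lie in the chromosome 15 stretch, by 0.43 and 0.36. The output factors Hlf and Dbp rose by 1.00 and 0.28. Per1 (-0.02 ± 0.14), Per2 (-0.03 ± 0.12), Cry1 (-0.10 ± 0.12), Nr1d1 (-0.32 ± 0.13) and Nr1d2 (0.05 ± 0.06) were not called. Clock (-0.18, edgeR adjusted p = 0.0462) and Ciart (-0.34, edgeR adjusted p = 0.049) were near the threshold. Their adjusted p, and that of Dbp, was 0.0648 to 0.104, 0.0528 to 0.105 and 0.0556 to 0.0754 without single libraries: for Clock control replicates 1, 3, 6, 7 and 8 or knockout replicates 1, 2, 4 and 5, for Ciart control replicates 2, 3, 4, 5, 6 and 8 or knockout replicates 1, 2, 5, 6 and 7, and for Dbp control replicates 1, 5, 6, 7 and 8 or knockout replicates 1, 2, 3, 4 and 6. Hlf had 0.0515 without knockout replicate 6, and Clock and Dbp were not called in the corrected fit. The hour at which tumors were taken is not given in the labels.

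Promoters of 16 of the 19 clock genes were matched in RefSeq (GRCm38.p6), as the 250 bases before each annotated start, with 24 promoters in all since some genes have several. A gene was counted if any of its promoters holds the E-box. This was so for 5 genes, 3 of 8 among those that fell (Ciart, Bhlhe41 and Tef) and 2 of 8 among the others (Cry1 and Per1), against 1854 of 27025 genes in the table (6.86%) and 1978 of 32851 single promoters (6.02%). The motif reads the same on both strands. The sequences below are those of the 4 repressor genes with an E-box, which stands in capitals, 5′ to 3′ on the strand of the gene: on the minus strand Ciart (chr3:95882229-95882478), which fell and holds 3 copies (0.0609% of promoters hold at least as many), Bhlhe41 (chr6:145865421-145865670), which fell, and Cry1 (chr10:85185055-85185304), which was not called, and on the plus strand Per1 (chr11:69098699-69098948), which was not called either. A match of these letters is a description of the sequence and not a measured binding site.
Ciart: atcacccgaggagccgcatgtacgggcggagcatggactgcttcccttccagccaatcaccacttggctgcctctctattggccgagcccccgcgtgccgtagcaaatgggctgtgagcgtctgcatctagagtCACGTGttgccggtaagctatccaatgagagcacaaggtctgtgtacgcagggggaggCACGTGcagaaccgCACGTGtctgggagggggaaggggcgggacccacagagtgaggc
Bhlhe41: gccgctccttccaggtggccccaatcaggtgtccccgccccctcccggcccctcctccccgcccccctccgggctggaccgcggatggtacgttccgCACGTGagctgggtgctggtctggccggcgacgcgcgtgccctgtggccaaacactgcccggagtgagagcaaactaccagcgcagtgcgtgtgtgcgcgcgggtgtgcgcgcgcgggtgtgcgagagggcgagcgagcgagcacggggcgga
Cry1: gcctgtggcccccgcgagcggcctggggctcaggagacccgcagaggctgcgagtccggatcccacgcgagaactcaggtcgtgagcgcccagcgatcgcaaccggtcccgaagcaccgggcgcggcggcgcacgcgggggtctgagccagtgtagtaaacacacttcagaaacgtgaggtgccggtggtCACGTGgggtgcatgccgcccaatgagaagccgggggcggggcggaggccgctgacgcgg
Per1: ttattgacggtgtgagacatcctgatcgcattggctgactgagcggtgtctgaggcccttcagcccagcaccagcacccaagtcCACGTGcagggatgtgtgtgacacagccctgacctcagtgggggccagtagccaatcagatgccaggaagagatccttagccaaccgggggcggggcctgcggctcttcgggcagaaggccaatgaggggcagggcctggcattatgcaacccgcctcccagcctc

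Over 35 genes of pyruvate and citric acid metabolism, 10 fell and 3 rose (median -0.05), against 19% and 18.1% over all genes. The corrected fit called 12 lower and 2 higher. Pyruvate carboxylase (Pcx), which feeds pyruvate into the citric acid cycle as oxaloacetate, measured 3.72 to 5.39 CPM (median 5.02) in knockout tumors and 8.42 to 12.3 CPM (median 10.7) in control tumors, without overlap (log2 fold change -1.12 ± 0.11, edgeR adjusted p = 2.67e-07), and fell in purified cells too (-1.39, edgeR adjusted p = 0.000269). It kept its call with host content in the model. The kinase Pdk1, which shuts pyruvate dehydrogenase, fell by 0.56 and the succinate dehydrogenase subunit Sdha by 0.24, whereas the subunits Sdhb and Sdhd rose by 0.22 and 0.28 and the cytosolic dehydrogenase Mdh1 by 0.27, Sdhb not in the corrected fit.

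Of 30 genes of folate-dependent carbon transfer, serine and nucleotide synthesis, 14 fell and 3 rose (median -0.15), against 19% and 18.1% over all genes. In 5 of those that fell the groups did not overlap, against 6.08% of all genes. The corrected fit called 12 lower and 3 higher. The mitochondrial folate enzyme Aldh1l2 measured 56.4 to 96.1 CPM (median 62.4) in knockout tumors and 109 to 136 CPM (median 122) in control tumors (log2 fold change -0.78 ± 0.10, edgeR adjusted p = 1.08e-05), and Mthfd1l, of the same pathway, 69.1 to 102 CPM (median 87.9) in knockout tumors and 117 to 137 CPM (median 123) in control tumors (log2 fold change -0.48 ± 0.07, edgeR adjusted p = 2.6e-05). Impdh2, the rate-limiting enzyme of guanine nucleotide synthesis, measured 84.8 to 125 CPM (median 122) in knockout tumors and 131 to 175 CPM (median 163) in control tumors (log2 fold change -0.43 ± 0.08, edgeR adjusted p = 0.000526). The serine enzymes Shmt2 and Psat1 fell by 0.29 and 0.33, the pyrimidine enzyme Cad by 0.40, and the purine enzyme Adsl, in the chromosome 15 stretch, by 0.53. Dhodh, Ppat and Tk1, other enzymes of nucleotide synthesis, rose by 0.30, 0.18 and 0.25, Tk1 not in the corrected fit.

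Genes of lipid handling changed in both directions. Of 28 genes of lipid uptake, storage and efflux, 10 fell and 7 rose (median -0.00), against 19% and 18.1% over all genes. The corrected fit called 10 lower and 6 higher. The receptor gene Vldlr, which binds triglyceride-rich lipoproteins, measured 84.8 to 134 CPM (median 111) in knockout tumors and 189.8 to 249 CPM (median 236) in control tumors, without overlap (log2 fold change -1.0 ± 0.09, edgeR adjusted p = 7.56e-08), and kept its call with host content in the model. The cholesterol exporter Abca1 fell by 0.59 and the lipid droplet protein Plin4 by 0.68. The sterol-sensing receptor Nr1h3 rose from 4.09 ± 1.9 CPM (mean and SD of 8 controls) to 9.61 ± 1.52 CPM (7 knockouts), by 1.24. Unlike Abca1, Abcg1 rose, from 32.9 ± 7.7 CPM (mean and SD of 8 controls) to 55.8 ± 14.1 CPM (7 knockouts) (log2 fold change 0.77 ± 0.16, edgeR adjusted p = 0.00221). In purified cells Abcg1 was lower in the knockout, at -1.40, and the effects differed (edgeR interaction adjusted p = 0.000874). Lipoprotein lipase (Lpl) rose by 0.93 and was under 1 CPM in culture.

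Autophagy delivers cell content to lysosomes. Of 31 of its core genes tested, 12 fell and 1 rose (median -0.16), against 19% and 18.1% over all genes. The corrected fit gave the same counts. Tfe3, a master factor of lysosomal genes that lies in the X stretch, measured 29.3 to 37.5 CPM (median 32.8) in knockout tumors and 46.3 to 55.7 CPM (median 49.1) in control tumors, without overlap (log2 fold change -0.60 ± 0.06, edgeR adjusted p = 9.2e-07), and kept its call with host content in the model. The starting kinase Ulk2 measured 34.2 to 38.7 CPM (median 35.3) in knockout tumors and 40.2 to 49.7 CPM (median 44.8) in control tumors (log2 fold change -0.30 ± 0.05, edgeR adjusted p = 0.000328) and the membrane marker Map1lc3b 69.4 to 86.3 CPM (median 75.96) in knockout tumors and 87.5 to 101 CPM (median 91.3) in control tumors (log2 fold change -0.25 ± 0.06, edgeR adjusted p = 0.00179), both without overlap. The cargo receptor Sqstm1 fell by 0.51, Atg13 by 0.39 and Atg14 by 0.36, and Atg5 rose by 0.23. Of 38 lysosomal enzymes 6 rose and 8 fell (median 0.09), shares near those over all genes (18.1% and 19%). The corrected fit called 8 higher and 9 lower. The myeloid cathepsins Ctss and Ctsh rose by 0.75 and 0.92 and stood below 2 CPM in culture.

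Ciliary transport showed 1 large rise among many small falls. Intraflagellar transport trains and the BBSome carry cargo along the primary cilium. Ift81, which binds tubulin in these trains, measured 23.3 to 34.6 CPM (median 26.3) in control tumors and 80.4 to 159 CPM (median 93.2) in knockout tumors, without overlap (log2 fold change 1.87 ± 0.13, edgeR adjusted p = 2.73e-08), and rose in purified cells too (1.23, edgeR adjusted p = 8.45e-05). It kept its call with host content in the model. Of the 35 genes tested, 13 fell and Ift81 alone rose (median -0.16), against 19% and 18.1% over all genes. The corrected fit called 12 lower. Ift122 measured 14.4 to 23.6 CPM (median 21.2) in knockout tumors and 24.2 to 34.4 CPM (median 26.7) in control tumors (log2 fold change -0.44 ± 0.10, edgeR adjusted p = 0.00191) and Ift172 14.2 to 24.3 CPM (median 21.8) in knockout tumors and 24.8 to 31.7 CPM (median 28.1) in control tumors (log2 fold change -0.40 ± 0.09, edgeR adjusted p = 0.002), both without overlap. Ift140, Wdr19 and Bbs7 fell by 0.43, 0.38 and 0.47, and Bbs2 by 0.38, without overlap.

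**Figure D5:**
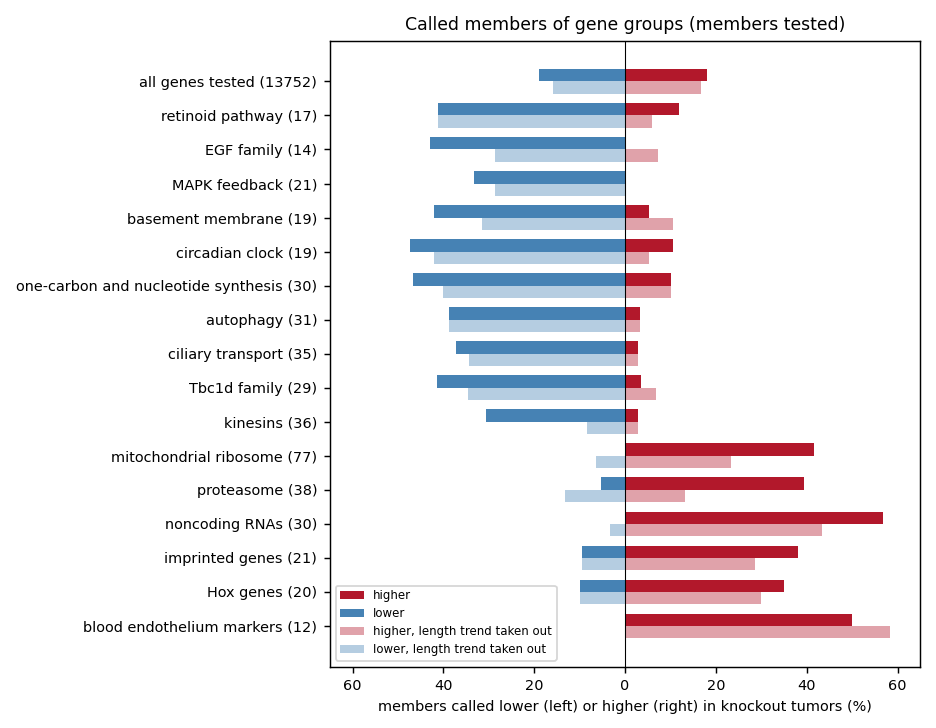
Percentage of tested members called higher (right, red) or lower (left, blue) in knockout tumors in 16 gene groups and in all genes tested, with members tested in brackets, and in paler bars the same from the fit with the length trend taken out. In the mitochondrial ribosome 32 of 77 genes were called higher and 18 with the trend taken out, whereas autophagy kept 12 of 31 lower in both fits.

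Some families had other counts once the length trend was taken out. Over all genes 18.1% rose and 19% fell. Of 77 genes of the mitochondrial ribosome, which have short transcripts, 32 rose and 0 fell (median 0.18), but the corrected fit called 18 higher and 5 lower (median 0.00). Mrpl42 measured 53.00 to 79.3 CPM (median 72.6) in control tumors and 88.7 to 115 CPM (median 93.1) in knockout tumors (log2 fold change 0.47 ± 0.08, edgeR adjusted p = 8.66e-05), without overlap. Of 38 proteasome genes 15 rose and 2 fell, against 5 and 5 in the corrected fit. The core subunit Psma5 rose by 0.42. Among 36 kinesins, motors with long transcripts, 11 fell and the neuronal Kif5c rose (0.71), against 3 lower in the corrected fit. Tbc1d genes, which switch off Rab GTPases of membrane traffic, held 12 of 29 lower and 1 higher, the leukocyte gene Tbc1d10c (0.65), and changed little in the corrected fit, with 10 and 2. Tbc1d25 of the X stretch fell by 1.17, without overlap, and kept its call with host content in the model.

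Of 30 noncoding RNAs tested, 17 rose and 0 fell (median 0.42), against 18.1% and 19% over all genes. The corrected fit called 13 higher and 1 lower. Hosts of small nucleolar RNAs were among those that rose: Snhg3 measured 9.89 to 13.5 CPM (median 11.1) in control tumors and 15.3 to 21.4 CPM (median 18.9) in knockout tumors, without overlap (log2 fold change 0.69 ± 0.10, edgeR adjusted p = 1.85e-05), Snhg8 rose by 0.68 and Gas5 by 0.42. Malat1, at 873 to 2017 CPM (median 1096) in knockout tumors and 447 to 1194 CPM (median 742) in control tumors, did not pass the test (log2 fold change 0.69 ± 0.27, edgeR adjusted p = 0.0573), and was called higher in the corrected fit (0.82). Neat1 was not called (-0.21 ± 0.10).

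Imprinted genes are active from the copy of a single parent. Meg3, a noncoding RNA, measured 1.2 to 4.78 CPM (median 3.83) in control tumors and 5.39 to 14.8 CPM (median 7.54) in knockout tumors (log2 fold change 1.33 ± 0.27, edgeR adjusted p = 0.00115), and Rian, a noncoding RNA of the same cluster, 1.68 to 4.41 CPM (median 3.41) in control tumors and 4.67 to 10.7 CPM (median 5.48) in knockout tumors (log2 fold change 1.09 ± 0.24, edgeR adjusted p = 0.00196). Both had groups without overlap and were under 1 CPM in culture. Kcnq1ot1, a noncoding RNA that silences another imprinted cluster, measured 18.3 to 27.4 CPM (median 24.97) in control tumors and 30.2 to 64.4 CPM (median 37.3) in knockout tumors (log2 fold change 0.74 ± 0.14, edgeR adjusted p = 0.000606), also without overlap. The transporter Slc22a18 rose by 0.71 and the sarcoglycan Sgce by 1.03. Over 21 imprinted genes tested, 8 rose and 2 fell (median 0.16), against 18.1% and 19% over all genes. The corrected fit called 6 higher and 2 lower.

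Hox genes carry the position of a cell along the body axis. Of 20 tested, 7 rose and 2 fell (median 0.30), against 18.1% and 19% over all genes. The corrected fit called 6 higher and 2 lower. Hoxb4 measured 0.924 to 2.4 CPM (median 1.93) in control tumors and 2.44 to 4.96 CPM (median 3.4) in knockout tumors, without overlap (log2 fold change 1.00 ± 0.22, edgeR adjusted p = 0.00151), and Hoxc8 rose from 0.462 ± 0.407 CPM (mean and SD of 8 controls) to 1.49 ± 0.444 CPM (7 knockouts), by 1.69. The 2 that fell, Hoxb9 (-1.06) and Hoxc5 (-0.48), were above 1 CPM in at least 1 cultured library, and Hoxb4 and Hoxc8 were below that level.

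Abundant genes of the cytoskeleton and of translation changed without overlap. Thymosin (Tmsb4x), which binds actin monomers and is abundant in leukocytes, measured 540.2 to 949 CPM (median 719.8) in control tumors and 1154 to 1749.7 CPM (median 1452) in knockout tumors (log2 fold change 1.00 ± 0.12, edgeR adjusted p = 8.31e-06). The short genes Rpl41, a ribosomal protein, and H2afz, a histone variant, rose by 0.71 and 0.53, and by 0.31 and 0.36 in the corrected fit, and Bzw1 by 0.42. Vimentin (Vim), the intermediate filament of mesenchymal cells, measured 3654 to 4791 CPM (median 4499) in knockout tumors and 5611 to 7189 CPM (median 6118) in control tumors (log2 fold change -0.48 ± 0.07, edgeR adjusted p = 2.56e-05). The translation factor Eef2 fell by 0.35, the glycolytic enzyme Pkm by 0.43, the chaperone Hspa8 by 0.23 and tubulin Tubb5 by 0.37. None of these genes had overlapping groups, which was a condition of the rule that named the largest changes. Over all genes 3.12% lay above and 6.08% below without overlap.

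Some regulators with low levels also separated the groups, again a condition of the rule that named the largest changes. Cpeb1, which controls polyadenylation and translation of stored mRNAs, measured 1.88 to 3.49 CPM (median 2.99) in control tumors and 5.53 to 9.88 CPM (median 8.34) in knockout tumors (log2 fold change 1.51 ± 0.15, edgeR adjusted p = 2.6e-07). Nov, a secreted matricellular protein, measured 2.53 to 5.35 CPM (median 3.89) in control tumors and 6.99 to 11.6 CPM (median 10.95) in knockout tumors (log2 fold change 1.33 ± 0.15, edgeR adjusted p = 2.1e-06) and rose in purified cells too, at 2.21 (edgeR adjusted p = 1.16e-05). Both kept their call with host content in the model. Pou2f2, a factor of lymphocytes and monocytes under 1 CPM in culture, rose by 1.54.

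Markers of cell types outside the leukocytes were read as lists, beside the shares over all genes (18.1% higher and 19% lower). Of 12 markers of blood endothelium, 6 rose and 0 fell (median 0.54), with 7 and 0 in the corrected fit. The surface sialomucin Emcn measured 2.8 to 5.24 CPM (median 3.38) in control tumors and 4.28 to 7.87 CPM (median 5.82) in knockout tumors (log2 fold change 0.73 ± 0.16, edgeR adjusted p = 0.00172), and Esam and Egfl7, genes of junctions and vessel matrix, rose by 0.63 and 0.60. The groups overlapped in these 3 genes. Of 8 pericyte markers tested, 0 were called, with Rgs5 at -0.06 ± 0.19 and Pdgfrb, which the cells in culture also express, at -0.02 ± 0.10. The corrected fit called 2 of these 8 higher. Of 10 pan-leukocyte markers 7 rose and 0 fell (median 0.60). Pecam1 of the endothelial list and Ptprc of the pan-leukocyte list also make up the host content. These counts and that measure thus share genes.

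Skeletal muscle genes rose, with large spread. Of 9 tested, 7 rose and 0 fell (median 2.21), against 18.1% and 19% over all genes. The corrected fit called 5 higher. The fast myosin Myh4 measured 0.062 to 17.7 CPM (median 2.34) in knockout tumors and 0 to 0.765 CPM (median 0.109) in control tumors (log2 fold change 4.14 ± 0.94, edgeR adjusted p = 0.00373) and creatine kinase (Ckm) 0.743 to 16.3 CPM (median 2.05) in knockout tumors and 0.0609 to 1.78 CPM (median 0.367) in control tumors (log2 fold change 2.93 ± 0.73, edgeR adjusted p = 0.0067). At so few counts in control tumors the fitted fold depends on the prior count. Knockout replicate 1 held the highest muscle content of all 15 tumors, and the groups overlapped. Both genes were also called higher in purified knockout cells, at 5.72 and 5.69 (edgeR adjusted p = 0.0153 and 0.0277), and muscle tissue and the tumor cells cannot be told apart as their source in whole tumors. Among smooth muscle markers, Acta2 (0.31 ± 0.25) and Myh11 (-0.11 ± 0.31) were not called, and of 7 tested Des alone rose (1.95), which skeletal muscle expresses too. The corrected fit called 2 of these 7 higher. For Des the edgeR adjusted p was 0.0541 to 0.109 without any single one of control replicates 1, 3, 4, 5, 7 and 8 or knockout replicate 1.

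Markers of fascia fibroblasts split. Dpt, a dermal matrix protein, measured 4.9 to 11.1 CPM (median 8.65) in control tumors and 17.8 to 25.4 CPM (median 21.2) in knockout tumors (log2 fold change 1.32 ± 0.14, edgeR adjusted p = 1.17e-06) and the peptidase Dpp4 1.41 to 3.23 CPM (median 2.38) in control tumors and 3.93 to 7.05 CPM (median 5.56) in knockout tumors (log2 fold change 1.26 ± 0.17, edgeR adjusted p = 1.09e-05), both without overlap. Dpt rose in purified knockout cells as well, by 3.04 (edgeR adjusted p = 5.93e-09). Ly6a rose by 0.48. The ferritin receptor Scara5, under 1 CPM in culture, measured 14.99 to 32.9 CPM (median 23.1) in knockout tumors and 52.6 to 81.1 CPM (median 67.8) in control tumors (log2 fold change -1.59 ± 0.15, edgeR adjusted p = 1.8e-06), and Cd34, which CT26 cells express in culture, 725 to 793 CPM (median 739.7) in knockout tumors and 863 to 1060.3 CPM (median 1006) in control tumors (log2 fold change -0.39 ± 0.05, edgeR adjusted p = 1.35e-05). Neither overlapped, and both kept their call with host content in the model. Gsn and Twist2, also expressed in culture, fell by 0.30 and 0.20, the latter with an edgeR adjusted p of 0.0514 to 0.0768 without any single one of control replicates 1, 2, 3, 6 and 7 or knockout replicates 1, 2, 3 and 5. In all, 5 of 13 rose and 4 fell (median 0.33), against 18.1% and 19% over all genes.

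Of 6 genes listed as neuronal markers 4 fell, against 19% over all genes, and cultured CT26 cells express all 4. The corrected fit called 5 of the list lower. Neurofilament light chain (Nefl) measured 29.1 to 42.02 CPM (median 39.6) in knockout tumors and 50.5 to 67.9 CPM (median 59.7) in control tumors (log2 fold change -0.67 ± 0.08, edgeR adjusted p = 1.58e-06), and beta-tubulin Tubb3 8.55 to 12.9 CPM (median 9.97) in knockout tumors and 15.1 to 19.1 CPM (median 16.1) in control tumors (log2 fold change -0.64 ± 0.09, edgeR adjusted p = 2.49e-05), both without overlap. Nefm fell by 0.36 and the vesicle protein Syt1 by 0.72. Cultured cells held 74.7 CPM of Nefl in the knockout and 80.4 and 86.5 CPM in the control lines. Of the lists for Schwann cells and erythroid cells, 4 and 5 genes were tested and 0 called. Pf4 alone of 4 platelet markers fell (-0.63).

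Markers of skin were mostly under the limit for testing. Of 14 keratinocyte markers 4 were tested and 1, Trp63, rose (1.04), with an edgeR adjusted p of 0.0635 without knockout replicate 5. Of 10 hair follicle markers 0 were tested. Of 14 adipocyte markers 2 were tested, Fabp4 and Lpl, and both rose, by 0.54 and 0.93. Over all genes 18.1% rose. Fabp4 had an edgeR adjusted p of 0.0505 to 0.0653 without any single one of control replicates 1, 3, 4, 5 and 6 or knockout replicates 1 and 2, and was not called in the corrected fit. Pdpn, a marker of lymphatic vessels that CT26 cells also express, fell by 0.45.

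The knockout effect in tumors was set against that in purified tumor cells by the interaction of setting and genotype. Of 15094 genes tested, 550 (3.64%) were higher in tumors relative to purified cells and 699 (4.63%) lower, together 8.27%. Sun1 did not differ between settings (-1.76 in purified cells, edgeR interaction adjusted p = 0.548). Wls (-0.84), Nid1 (-1.05) and Pcx (-1.39) were lower in both settings.

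For some abundant genes, picked for their narrow intervals, the data bound any change tightly at the scaling used. With upper-quartile scaling the median log2 fold change over all genes tested moved from 0.01 to 0.05. The 8 genes above 50 CPM with the narrowest intervals around 0 included Scarb2, Vcp, Rbbp7, Phb2, Raly, Eif4b and Ccnd1. The ATPase Vcp measured 411 to 463 CPM (median 433) in knockout tumors and 424 to 452 CPM (median 440.1) in control tumors, with a 95% interval of the log2 fold change of -0.09 to 0.10. Cyclin D1 (Ccnd1), which drives entry into the cell cycle, measured 618 to 656 CPM (median 631) in knockout tumors and 595 to 683 CPM (median 639) in control tumors, with an interval of -0.11 to 0.09.

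The authors' deposited table of the same comparison calls 3058 genes higher and 2977 lower at its adjusted p under 0.05. It holds, in the same direction, 2171 of the 2488 genes called higher here and 2424 of the 2619 called lower.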

How the data were processed

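RNA of whole tumors was enriched for mRNA and sequenced in pairs on an Illumina HiSeq, per the labels. FastQC, STAR, RSEM and DESeq2 and the build mm10 are named in the submitters' processing notes, with versions and settings not given in the sources used here. The expected counts and TPM values were deposited by the authors, 1 file per library with 35976 genes, per the file headers. The log2 fold changes and adjusted p-values of the authors' deposited table were used only in the closing sentences of the report, with their direction read from Sun1. TPM values entered no test. No column of values was left unmapped.

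Expected counts were rounded and tested with edgeR 4.0.16 (R 4.3.3; TMM scaling, filterByExpr with a minimum count of 10 and total of 15, robust quasi-likelihood F test, Benjamini-Hochberg adjustment over all genes tested, two-sided). RSEM divides reads among similar transcripts, so close paralogs can share them. Strandedness is not given in the sources used here. No 2 libraries of a group agreed within sampling noise. The interaction fit joined the 15 tumors with the 6 purified libraries, with both purified control lines as 1 arm. Transcript length was the mean of RSEM's deposited length over the tumor libraries, and its trend was taken out as loess offsets (span 0.4), an alternative chosen after seeing the data. Other alternatives were other scalings and filters, DESeq2 1.42.0, limma 3.58.1 voom, content of host or muscle genes as a term, the replicate block, and each library left out. The code was tested on simulated data.

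Named genes were taken by rule: Sun1, the 15 largest changes per direction without overlap by log2 fold change or by CPM, up to 3 called members per list and direction with the smallest p, the 8 steadiest genes above 50 CPM, and genes of extreme 10 Mb windows. Further members, block genes and genes not called were chosen after their values were seen. Gene lists and members were chosen with earlier results of these data known, so their counts are descriptions. Promoter sequences are RefSeq (GRCm38.p6), and gene positions come from the same assembly. Some of the genes that these rules select are not reported here.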

Additional observations from a re-analysis of the deposited data

Results flagged for a closer look

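A set of values was a gene in the 7 knockout or the 8 control tumors. In 45 of 468 sets a single library lay far from the rest of its group by Dixon's criterion. Chance alone meets it in about 1 of 20 sets if values are normal and sets independent. These sets share libraries and hold CPM without a log scale, so that rate is no yardstick for the 45. Knockout replicate 6 was the far library in 21 of the 45 sets. It was low, in CPM, for Itga6 (113), Lamc1 (346), Col4a2 (113), Irs2 (15.8), P2ry2 (7.12), Nr1d1 (59.7), Impdh2 (84.8), Ift172 (14.2), Vim (3654), Tubb5 (826), Tmlhe (0.372), Uba1 (135) and Myh9 (298). It was high for Efna5 (58.1), Ift81 (159), Kcnq1ot1 (64.4), Rpl41 (1493), Bzw1 (866), Rhox5 (232), Eif4b (470.2) and Mrpl42 (115). The same library had the lowest value of the length measure, -0.50.

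Knockout replicate 1 was high for Egfl7 (13.5), Des (31.8), Fabp4 (40.1), Myh4 (17.7), Ckm (16.3) and Pou2f2 (18.04), in the library with the highest muscle content. Knockout replicate 5 was high for Igf1 (5.56), Pdgfrb (97.00), Kdm6a (28.5) and Rac2 (80.02). Among control tumors, replicate 1 was low for Ier3 (24.4). Control replicate 2 was high for Nr1h3 (8.41) and Fbln1 (1.94). Control replicate 3 was high for Atg13 (51.9), Maff (123) and Raly (339) and low for Mfap5 (4.89). Control replicate 4 was high for Fzd3 (20.1). Control replicate 5 was high for Csgalnact1 (12.04) and low for Has1 (3.82) and Nefm (36.5). Control replicate 6 was high for Stag2 (153) and low for Cpeb1 (1.88). Control replicate 8 was high for Sfrp2 (1.25).

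For 36 of 234 reported genes the knockout effect in tumors differed from that in purified tumor cells by the edgeR interaction test. The difference of the log2 fold changes, tumors minus purified cells, was above 0 in 21 genes, namely Loxl1 (3.30), Mfap5 (2.42), Calcrl (0.83), Sdhd (0.49), Tk1 (0.53), Abcg1 (2.16), Tfe3 (0.39), Fabp4 (3.18), Tmsb4x (1.12), Rpl41 (0.89), H2afz (0.66), Pou2f2 (3.48), Plp2 (0.35), Cask (6.27), Il13ra1 (6.93), Tmlhe (3.99), Stag2 (0.40), Cfp (1.99), Il2rb (2.11), Syp (2.89) and Mrpl42 (0.50). It was below 0 in 15 genes, namely Itgb4 (-1.28), Itga6 (-0.67), Spred3 (-0.88), Slit2 (-0.57), Slit3 (-0.84), Plxna2 (-0.72), Enpp2 (-2.45), Clock (-0.51), Plin4 (-1.70), Tubb3 (-0.71), Nefm (-0.66), Dpt (-1.73), Scara5 (-2.55), Pthlh (-1.37) and Hoxc5 (-1.15). For genes with few or no counts in purified knockout cells, such as Cask, Tmlhe and Il13ra1, the size depends on the prior count. Tumors and purified cells are different libraries, made from mixed tissue and from isolated cells, and they differ in the number per group (7 and 8 against 2 and 4).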

How the results depend on the processing

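Without single libraries, the genes called higher ranged from 2166 to 2519 and those called lower from 2322 to 2645. Genes at least 2-fold higher ranged from 252 to 362, and at least 2-fold lower from 112 to 145. The log2 fold change of Sun1 ranged from -1.66 to -1.60. The count at least 2-fold higher moved most with host content as a term, to 13. It was 547 with DESeq2, which here also ran without the filter on low counts, 619 without that filter, 83 for genes of at least 5 CPM and 200 with muscle content. At least 2-fold lower, they were 208 without the filter, 48 for genes of at least 5 CPM and 49 with host content. All calls were 39 higher and 157 lower with host content, and 1599 higher with muscle content. Upper-quartile scaling gave 3106 higher and 2063 lower, or 60.1% of calls higher against 48.7%. Scaling to library totals, DESeq2-type size factors, voom and the length correction kept both counts within 1.5 times, between 2191 and 2637. With host content as a term, the log2 fold changes that changed sign became -0.34 for Cfp, 0.018 for Ciart, -1.43 for Ckm, 0.084 for Clock, -0.35 for Ctsh, -0.51 for Ctss, -0.037 for Cyth4, -1.33 for Des, -0.15 for Egfl7, -0.014 for Esam, -0.40 for Fabp4, -0.38 for Fbln1, -0.35 for Grb10, 0.013 for Hoxb9, -0.29 for Igf1, -0.19 for Loxl1, -0.23 for Loxl2, -0.30 for Meg3, -0.15 for Mfap5, -0.24 for Mfng, -0.74 for Myh4, -0.55 for Rarres2, -0.30 for Rian, -0.030 for Sgce, -0.80 for Srpx, -0.045 for Tbc1d10c and 0.068 for Twist2. With muscle content Des became -0.56. The cause of these shifts was not tested.

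Replicate numbers are shared between the groups, and deviations of same-numbered tumors correlated between -0.11 and 0.22 over 7 pairs. The labels do not say what a shared number means, and such correlations cannot show whether a batch was shared. A fit with the replicate block, without control replicate 8, gave 2432 higher and 2533 lower. Des, Fabp4, Fbln1, Hlf, Loxl2, Myh4 and Rarres2 were not called in it. Among the tumors of these pairs, control replicate 5 alone correlated best with the tumor of its own number.

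Of the 207 called genes chosen for description, 193 were called without each of the 15 libraries in turn. Leaving out knockout replicate 6 and control replicate 1 together, chosen after seeing the data, gave 2147 higher and 2340 lower, and Aldh1a1, Atg5, Ciart, Dbp, Trp63 and Xylt1 were then not called. Without a filter, Cfp, Ciart, Clock, Dbp, Des, Fabp4 and Lpl were not called. Other losses were Ciart, Clock and Twist2 with upper quartiles, Ciart and Clock with DESeq2-type factors and among genes of at least 5 CPM, Cfp and Ciart with library totals, Clock with DESeq2 and Des with voom. Depth limits genes near 1 CPM, about 20 counts a library.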
